A study of Arabidopsis thaliana with 6 samples.

Results

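The Aux/IAA repressors and the auxin response factors (ARFs) are the transcription regulators of the nuclear auxin pathway. Their genes were chosen by locus code: 42 codes were listed, 28 for Aux/IAA genes and 14 for ARF genes, and all 42 were present among the 20777 loci measured. Transcripts were measured in the vegetative part of seedlings of Arabidopsis thaliana (ecotype Col-0) on 6 ATH1 oligonucleotide arrays, each of which gives 1 value per locus. Of these arrays, 3 came from 35S::GRF5 plants, which overexpress the growth-regulating factor gene GRF5 from the strong and widely active 35S promoter, and 3 from wild-type plants. Both groups were at growth stage 1.03 and had been raised in vitro on MS medium at 22 °C with days of 16 h and nights of 8 h; their samples are labelled as biological repeats. The labels speak of 1 overexpressing line and do not say whether it descends from a single transformant. Values are log2 expression values, and each difference is 35S::GRF5 minus wild type on that scale.

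Auxin acts through the removal of a repressor. Aux/IAA proteins bind ARFs through a shared carboxy-terminal interaction domain and bring TOPLESS corepressors to the genes that ARFs occupy; auxin joins Aux/IAA proteins to the TIR1/AFB F-box receptors, whose SCF ubiquitin ligase marks the repressor for breakdown. Many Aux/IAA genes are themselves induced by auxin, so their transcripts form a feedback loop as well as a readout of the pathway. In leaves the pathway is known for its part in primordium formation, vein patterning and the timing and extent of cell growth.

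The overexpressed gene was checked first. GRF5 (AT3G13960) read 11.34, 11.42 and 12.08 in 35S::GRF5 replicates 1 to 3, against 4.73, 4.75 and 4.26 in wild-type replicates 1 to 3, so that the groups were far apart and matched their labels. Leaf markers were near the top of the range: RCA, Rubisco activase, and CA1, a carbonic anhydrase, had 99.97% and 99.88% of all loci below them. The other 3 leaf markers of the list were not in the table. The 7 root markers averaged 5.12 to 5.27 in 35S::GRF5 arrays and 5.24 to 5.28 in wild-type arrays, and the 4 floral markers 3.92 to 4.20 and 3.996 to 4.12. All 7 root markers had negative differences, from -0.15 to -0.0056, where 56.2% of all loci had positive ones. Of the floral markers 3 had positive differences and 1 a negative one, -0.44, with the line wholly below the wild type (8.45% of all loci). The floral markers were low, with 3.48% to 29.4% of all loci below their means. Of all these markers, 0 passed the test described next. Wild type replicate 3 stood apart in 14 genes of the rapid response to touch and stress, all of which had their highest value there. Their mean was 7.25 in that array, 5.68 to 5.94 in 35S::GRF5 and 5.52 to 5.79 in the other wild-type arrays. Array medians were 6.41 to 6.43 in 35S::GRF5 and 6.38 to 6.39 in wild type, and over all loci the difference had a median of 0.024.

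The differences of the auxin signalling transcripts ran from -0.34 to 0.45. Sign aside, their median was 0.14, against 0.11 over all loci, and 10 of the 42 (23.8%) exceeded 0.25, against 15.4% of all loci. Of the 42 members, 0 passed limma with Benjamini-Hochberg adjustment over all loci at a threshold of 0.05, where 0.77% of all loci did (160 of 20777, 0.284% higher and 0.486% lower). The smallest adjusted p of any member was 0.0877. At an unadjusted p under 0.05 there were 7 members, which is 16.7% of them against 15.5% of all loci; 6 had a positive difference and 1 a negative one, where 9.49% and 5.97% of all loci did. Without wild type replicate 1 there were 4 members (9.52%, against 11.1% of all loci), and without 35S::GRF5 replicate 1 there were 10 (23.8%, against 15.9%). The arrays of the line lay wholly above those of the wild type for 7 members (13.2% of all loci) and wholly below them for 4 (8.45%), together 26.2% of the members against 21.7% of all loci. In the main analysis of all 6 arrays the shares at the unadjusted p and without overlap were near those of all loci. Other fits to all 6 arrays gave, at the unadjusted p, 21.4% with array weights (against 16.5% of all loci). The share was 19.0% with the replicate number as a block (against 14.3%) and 9.52% with each gene's own variance (against 12.8%).

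The intervals bound how large an unseen difference in the array values could be. The 95% interval of every one of the 42 members lay inside 1 log2 unit to either side of 0, as it did for 98.9% of all loci. For each gene taken singly this excludes, at that confidence, a change of 2-fold or more in the array value. For members too low to separate from background it does not bound the change in the transcript. The lowest bound of any member was -0.71, for IAA32, and the highest 0.71, for IAA2, a factor of 1.64 either way. For 30 of the 42 (71.4%) the interval also lay inside 0.5 log2 units, as it did for 82.0% of all loci. The median member interval reached 0.25 to either side, against 0.23 over all loci, and the median residual SD was 0.15, against 0.13. Since each sample pools every cell type of the shoot, fewer cells of a type and less RNA per cell cannot be told apart, and a change limited to a few cells would be diluted.

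**Figure D1:**
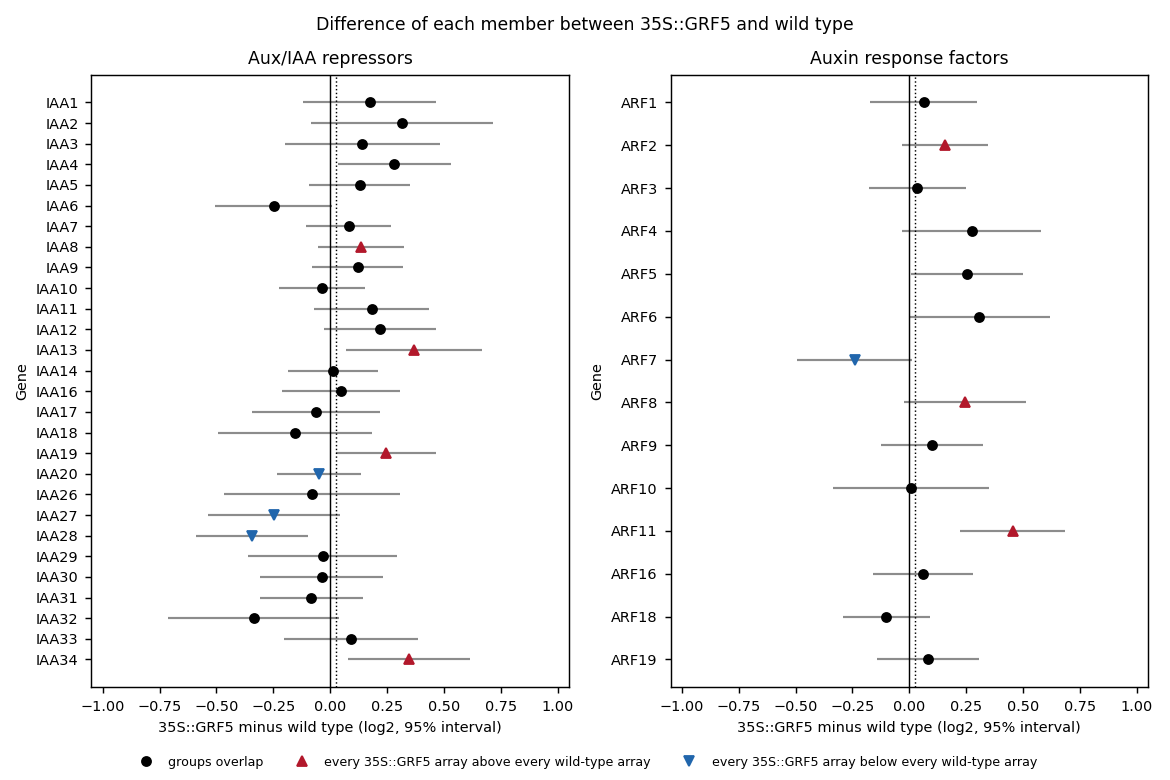
Difference between 35S::GRF5 and wild type (x axis, log2) for the 28 Aux/IAA genes (left) and 14 ARF genes (right), with 95% intervals from limma, n = 3 arrays per group. The dotted line is the median of all loci, 0.02; all intervals lie inside 1 log2 unit, and the 4 members with blue triangles had every 35S::GRF5 array below every wild-type array.

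Of the 28 Aux/IAA members, 16 had positive and 12 negative differences (57.1% positive, against 56.2% of all loci), with a median of 0.07 and a range of -0.34 to 0.37. The median was 0.03 without 35S::GRF5 replicate 2 and 0.11 without wild type replicate 3. Among loci above the median level, 13 of 18 members were positive (72.2%, against 61.1% of all such loci). Their median difference was 0.13, against 0.05 for all such loci. In limma 0 passed over all loci, and at an unadjusted p under 0.05 there were 5 (17.9%, against 15.5% of all loci), IAA4, IAA13, IAA19 and IAA34 with positive differences and IAA28 with a negative one. That count moved both ways between fits. It was 2 (7.14%, against 11.1% of all loci) without wild type replicate 1 and 2 (7.14%, against 12.8%) with each gene's own variance. It was 6 (21.4%, against 12.1%) without wild type replicate 3 and 6 (21.4%, against 16.5%) with array weights. With the replicate number as a block it was 7 (against 14.3% of all loci). The 22 members that carry the degron, the short stretch that auxin receptors recognise, had a median difference of 0.10. The 6 members known to lack it or to carry an altered form (IAA20, IAA30, IAA31, IAA32, IAA33 and IAA34) had one of -0.04. All 6 were low on the array, with 4.87% to 33.8% of all loci below their means, and without detection calls a value there cannot be separated from background.

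IAA28 (AT5G25890), a repressor known from a stabilised mutant that makes few lateral roots, had the smallest p among the Aux/IAA genes. It read 5.24, 5.57 and 5.21 in 35S::GRF5 arrays and 5.73, 5.66 and 5.68 in wild-type arrays. All 3 arrays of the line were below all 3 of the wild type, and the wild-type arrays were close together. The difference was -0.34 (95% interval -0.59 to -0.10, n = 3 per group, adjusted p = 0.181 in limma), a level 1.27-fold lower in 35S::GRF5 that did not pass the threshold.

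IAA34 (AT1G15050), which lacks the degron, read 4.83, 4.68 and 4.42 in 35S::GRF5 arrays and 4.16, 4.42 and 4.31 in wild-type arrays. The groups did not overlap, but only narrowly, since the lowest array of the line and the highest of the wild type both rounded to 4.42. The difference was 0.35 (0.08 to 0.61, adjusted p = 0.211). IAA32 (AT2G01200), its close relative, also without a degron, read 4.21, 4.34 and 3.63 in 35S::GRF5 arrays and 4.52, 4.39 and 4.27 in wild-type arrays. Its difference of -0.34 (adjusted p = 0.378) had the opposite sign, and it was -0.12 without 35S::GRF5 replicate 3, the lowest array. Whether the 2 relatives differ from each other was not tested.

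IAA13 (AT2G33310) and IAA12 (AT1G04550) are a pair of close relatives that bind ARF5 and act in the patterning of the embryo, where IAA12 is known as BODENLOS. IAA13 read 8.39, 8.60 and 8.43 in 35S::GRF5 arrays and 8.26, 7.80 and 8.25 in wild-type arrays. All arrays of the line were higher, and wild type replicate 2 was the lowest. The difference of 0.37 (0.07 to 0.67, adjusted p = 0.223), the most positive among the Aux/IAA genes, was 0.22 without that array. IAA12 read 6.67, 6.84 and 6.59 in 35S::GRF5 arrays and 6.51, 6.63 and 6.32 in wild-type arrays. Here the groups overlapped, and the difference was 0.22 (adjusted p = 0.383), or 0.13 without wild type replicate 3.

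A set of short Aux/IAA genes known for rapid induction by auxin came next. IAA4 (AT5G43700) read 8.70, 8.83 and 8.92 in 35S::GRF5 arrays and 8.51, 8.37 and 8.72 in wild-type arrays, a difference of 0.28 (0.03 to 0.53, adjusted p = 0.261) in which wild type replicate 3 reached into the range of the line. IAA19 (AT3G15540), which acts with ARF7 in the bending of the hypocotyl towards light, read 7.57, 7.65 and 7.70 in 35S::GRF5 arrays and 7.30, 7.33 and 7.55 in wild-type arrays. Its groups were separate and its difference was 0.24 (0.02 to 0.46, adjusted p = 0.273). IAA6 (AT1G52830) had the opposite sign, with 5.69, 5.79 and 5.96 in 35S::GRF5 arrays and 6.10, 5.87 and 6.22 in wild-type arrays, a difference of -0.25 (adjusted p = 0.34) between overlapping groups.

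IAA2 (AT3G23030) varied more between replicates than any other member, with a residual SD of 0.30. It read 9.14, 8.82 and 8.75 in 35S::GRF5 arrays and 8.52, 8.25 and 8.99 in wild-type arrays. Wild type replicate 3, the array with high rapid stress genes, was above 2 arrays of the line. The difference was 0.32 (-0.08 to 0.71, adjusted p = 0.436), became 0.52 without that array and was 0.15 without wild type replicate 2 and 0.20 without 35S::GRF5 replicate 1. The part of the stress response in these values was not tested.

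IAA27 (AT4G29080), also called PAP2, read 6.19, 6.71 and 6.60 in 35S::GRF5 arrays and 6.78, 6.73 and 6.74 in wild-type arrays. The groups did not overlap, but 1 array of the line, replicate 1, lay far below the rest. The difference of -0.25 (adjusted p = 0.399) was -0.09 without it. IAA8 (AT2G22670) read 11.51, 11.42 and 11.37 in 35S::GRF5 arrays and 11.30, 11.28 and 11.31 in wild-type arrays, a small gap with no overlap and a difference of 0.14 (adjusted p = 0.482). IAA11 (AT4G28640) read 7.03, 6.83 and 6.73 in 35S::GRF5 arrays and 6.79, 6.51 and 6.74 in wild-type arrays, with overlap and a difference of 0.18 (adjusted p = 0.482). It was 0.10 without 35S::GRF5 replicate 1, its highest array, and 0.10 without wild type replicate 2, its lowest.

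The remaining 16 Aux/IAA members had adjusted p of 0.567 to 0.966. IAA1 (AT4G14560) differed by 0.17, IAA3 (AT1G04240; SHY2, which limits the size of the root meristem) by 0.14, IAA5 (AT1G15580) by 0.13, IAA9 (AT5G65670) by 0.12, IAA33 (AT5G57420) by 0.09, IAA7 (AT3G23050; AXR2) by 0.08, IAA16 (AT3G04730) by 0.05 and IAA14 (AT4G14550; SOLITARY-ROOT, a repressor of lateral root formation) by 0.01. IAA18 (AT1G51950) differed by -0.15, IAA31 (AT3G17600) by -0.08, IAA26 (AT3G16500; PAP1) by -0.08, IAA17 (AT1G04250; AXR3) by -0.06, IAA20 (AT2G46990) by -0.05, IAA30 (AT3G62100) by -0.04, IAA10 (AT1G04100) by -0.04 and IAA29 (AT4G32280), a gene of the shade response, by -0.03. IAA7 varied little between replicates, with a residual SD of 0.04, and lay between 10.55 and 10.63 in 35S::GRF5 arrays and between 10.47 and 10.56 in wild-type arrays. IAA20 was the 1 gene of these 16 whose groups did not overlap, at 4.94 to 4.97 in 35S::GRF5 arrays and 4.97 to 5.07 in wild-type arrays, with a gap too small to show at 2 decimals.

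Among these genes are 3 pairs of direct neighbours in the gene order of the reference, with 0 protein-coding genes between them: IAA14 and IAA1, IAA3 and IAA17, and IAA2 and IAA7. Within the pairs the differences were 0.01 and 0.17, 0.14 and -0.06, and 0.32 and 0.08, and 0 of the 6 genes passed the threshold.

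**Figure D2:**
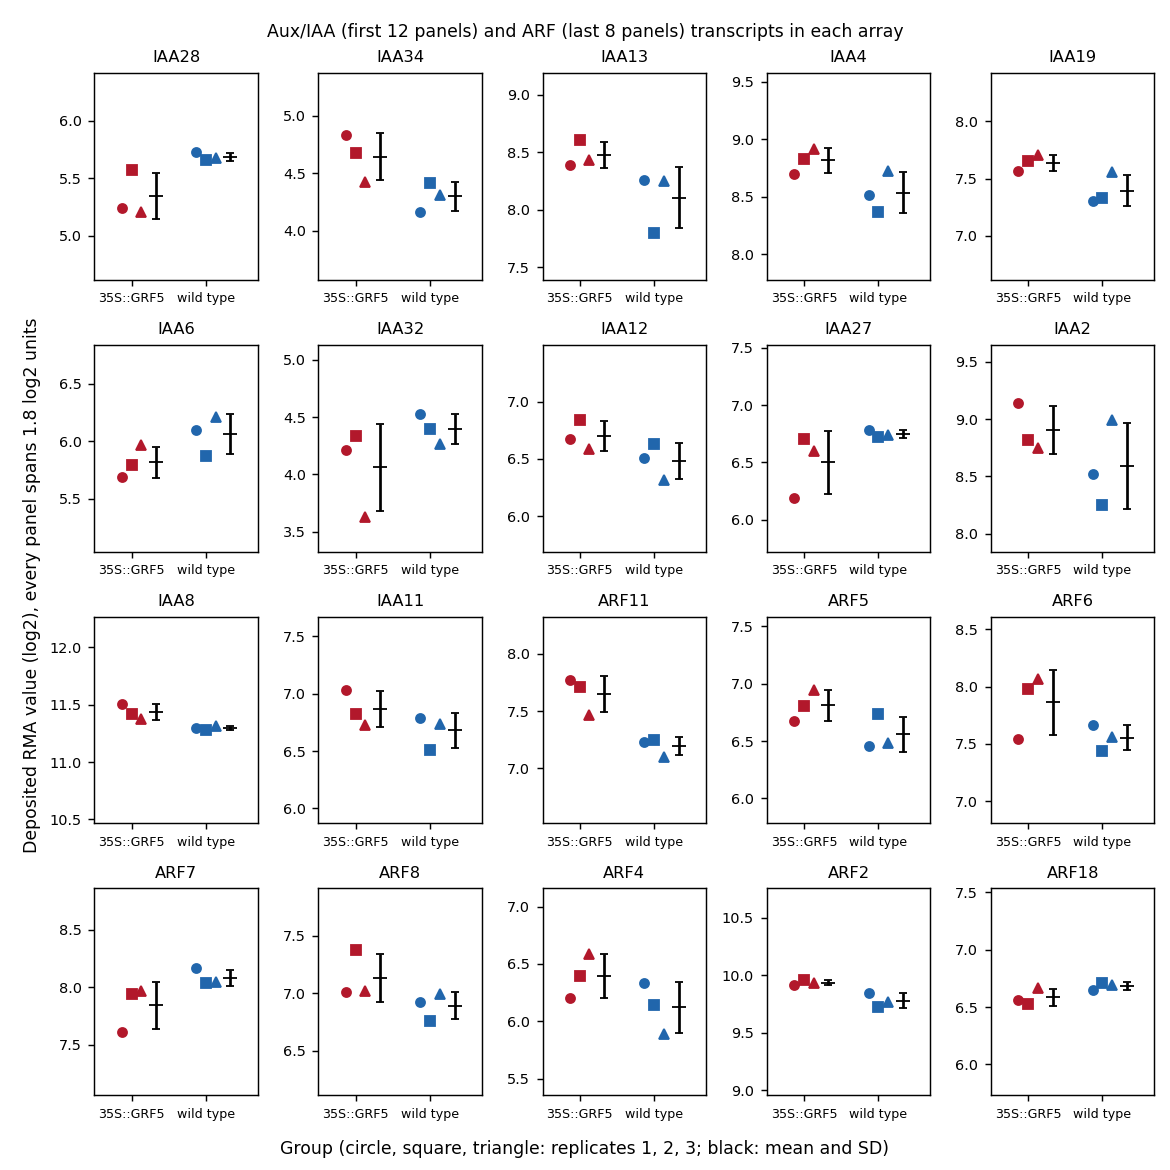
Deposited log2 value (y axis, each panel spanning 1.8 log2 units) of the 12 Aux/IAA and 8 ARF genes with the smallest unadjusted p, in the 3 arrays of 35S::GRF5 (red, left) and of wild type (blue, right), with mean and SD in black (n = 3). ARF11 and IAA13 lie higher in every 35S::GRF5 array, IAA28 lies lower in every one, and in IAA27 the replicate 1 array of the line, at 6.19, lies apart from the others.

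Of the 14 ARF members, 12 had positive and 2 negative differences (85.7% positive, against 56.2% of all loci), with a median of 0.09 and a range of -0.24 to 0.45. The median was 0.15 with replicate 1 of the line left out and 0.13 with its replicate 2 left out, and 9 to 12 were positive when single arrays were left out. With each array centred on its median, 10 were positive, against 46.1% of all loci. In limma 0 passed over all loci, and 2, ARF11 and ARF5, had an unadjusted p under 0.05 (14.3%, against 15.5% of all loci). That count depended on single arrays. It was 5 (35.7%, against 15.9% of all loci) without 35S::GRF5 replicate 1 and 1 (7.14%, against 12.1%) without wild type replicate 3. It was also 1 (7.14%, against 14.3% of all loci) with the replicate number as a block, and 3 (21.4%, against 16.5%) with array weights. The adjusted threshold was passed by 0 members in each of these fits. The 5 class A members, which activate transcription, had a median difference of 0.24, the 7 class B members, mostly repressors, one of 0.10, and the 2 class C members one of 0.03.

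ARF11 (AT2G46530), of class B, had the smallest p of all 42 members. It read 7.77, 7.71 and 7.47 in 35S::GRF5 arrays and 7.23, 7.25 and 7.10 in wild-type arrays. Every array of the line was higher than every wild-type array, with a clear gap between the groups. The difference was 0.45 (0.22 to 0.69, n = 3 per group), 1.37-fold, with an unadjusted p of 0.00151 and an adjusted p of 0.0877 in limma. It missed the threshold under each of the 14 alternatives run, with adjusted p of 0.0651 to 0.299 and differences of 0.39 to 0.54.

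ARF5 (AT1G19850), or MONOPTEROS, is an activator that sets up the embryo axis, leaf veins and flower primordia. It read 6.68, 6.80 and 6.95 in 35S::GRF5 arrays and 6.46, 6.73 and 6.48 in wild-type arrays. Wild type replicate 2 lay within the range of the line. The difference was 0.25 (0.01 to 0.50, adjusted p = 0.311).

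ARF6 (AT1G30330) and ARF8 (AT5G37020) are closely related activators, both targets of the microRNA miR167, that promote the elongation of hypocotyls and floral organs. ARF6 read 7.54, 7.98 and 8.07 in 35S::GRF5 arrays and 7.67, 7.44 and 7.56 in wild-type arrays, so that replicate 1 of the line was at the wild-type level and its other replicates above it. The difference of 0.31 (-0.0025 to 0.62, adjusted p = 0.328) became 0.47 without that array, with an adjusted p of 0.0778. ARF8 read 7.01, 7.38 and 7.02 in 35S::GRF5 arrays and 6.92, 6.76 and 6.99 in wild-type arrays. The groups did not overlap, replicate 2 of the line was the highest, and the difference of 0.24 (adjusted p = 0.367) was 0.12 without it.

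ARF7 (AT5G20730) and ARF19 (AT1G19220) are activators with overlapping roles in lateral root formation, and ARF7 also in tropic bending. ARF7 read 7.61, 7.94 and 7.97 in 35S::GRF5 arrays and 8.16, 8.03 and 8.05 in wild-type arrays. It was the 1 class A gene with a negative difference, -0.24 (-0.49 to 0.01, adjusted p = 0.344), or -0.12 without 35S::GRF5 replicate 1, the lowest array. ARF19 differed by 0.08 (adjusted p = 0.754), and by 0.02 to 0.16 when single arrays were left out.

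ARF2 (AT5G62000), ARF3 (AT2G33860) and ARF4 (AT5G60450) are targets of the small interfering RNAs called tasiR-ARF; ARF3 and ARF4 mark the lower side of leaves, and ARF2 limits organ growth. ARF2 read 9.92, 9.96 and 9.93 in 35S::GRF5 arrays and 9.85, 9.72 and 9.77 in wild-type arrays. The groups were separate and tight, and the difference was 0.16 (-0.03 to 0.34, adjusted p = 0.41). ARF4 read 6.20, 6.40 and 6.59 in 35S::GRF5 arrays and 6.34, 6.14 and 5.89 in wild-type arrays, overlapping, with a difference of 0.28 (adjusted p = 0.373) that was 0.16 without wild type replicate 3 and 0.18 without 35S::GRF5 replicate 3. ARF3 differed by 0.04 (adjusted p = 0.896).

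ARF18 (AT3G61830) read 6.56, 6.53 and 6.67 in 35S::GRF5 arrays and 6.65, 6.71 and 6.69 in wild-type arrays, a difference of -0.10 (adjusted p = 0.626) between groups that overlapped. ARF10 (AT2G28350) and ARF16 (AT4G30080), the class C targets of miR160, differed by 0.01 and 0.06, and ARF9 (AT4G23980) and ARF1 (AT1G59750) by 0.10 and 0.06, with adjusted p of 0.692 to 0.986. ARF10 was the most variable ARF, with a residual SD of 0.25. It lay at 7.06, 7.72 and 7.50 in 35S::GRF5 arrays and 7.39, 7.34 and 7.52 in wild-type arrays, so that replicates 1 and 2 of the line were the lowest and the highest of all 6 arrays. The 7 small RNA targets among the ARF genes all had positive differences (56.2% of all loci did), with a median of 0.16. Of them 0 had an unadjusted p under 0.05, and for ARF3 and ARF10 the sign turned with arrays centred on their medians (-0.0023 and -0.030). With single arrays left out it turned in 4 of 6 fits for ARF10 and in 1 each for ARF3 and ARF16. Replicate 1 of the line was its lowest array for 6 of the 7 (34.8% of all loci).

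The spread within the groups was not shared evenly by the arrays. Leaving out 1 array moved the difference by over 1.5 times, or turned its sign, for 31 of the 42 members, 21 Aux/IAA and 10 ARF genes; the 11 others were IAA4, IAA6, IAA7, IAA8, IAA19, IAA28, IAA34, ARF2, ARF5, ARF11 and ARF18. Within the line, replicate 1 held the lowest value for 22 of the 42 members (52.4%, against 34.8% of all loci), 9 of them among the 14 ARF genes. Within the wild type, replicate 2 held the lowest value for 21 members (50.0%, against 31.9% of all loci). Replicate 3 of the wild type held the highest for 16 of the 28 Aux/IAA genes (57.1%, against 34.8%) and for 3 of the 14 ARF genes. Mean Aux/IAA levels were 7.11, 7.17 and 7.10 in 35S::GRF5 arrays and 7.07, 7.02 and 7.17 in wild-type arrays. Mean ARF levels were 7.25, 7.38 and 7.40 in 35S::GRF5 arrays and 7.25, 7.22 and 7.19 in wild-type arrays. The ranges of both means overlapped between the groups. Wild type replicate 3, with the highest Aux/IAA mean of its group, was also the array with high rapid stress genes, whose part in these values was not tested. Without that array IAA3 differed by 0.26, IAA1 by 0.28, IAA4 by 0.38 and IAA6 by -0.17, and 0 members passed the threshold.

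**Figure D3:**
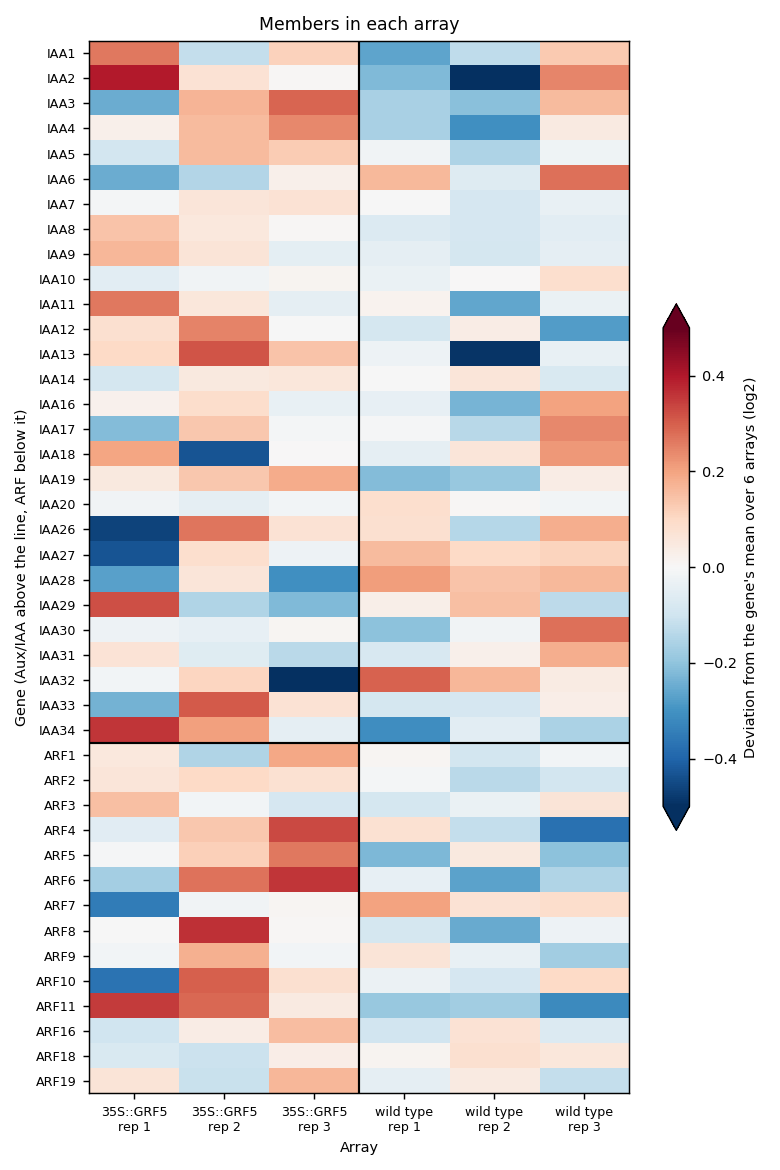
Deviation of each member (rows, 28 Aux/IAA above the line and 14 ARF below it) from its own mean over the 6 arrays (log2, colour scale capped at 0.5 either way), with the 3 arrays of 35S::GRF5 left of the 3 of wild type. Reds and blues are mixed within each array, and ARF11 and IAA13 are among the few rows that are red in all arrays of the line and blue in all of the wild type.

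The other genes of the pathway were examined through 5 lists with 60 measured genes, of which 0 passed limma over all loci (0.77% of all loci did) and 8 had an unadjusted p under 0.05 (13.3%, against 15.5% of all loci). Without 35S::GRF5 replicate 1 there were 14 (23.3%, against 15.9%). Of the 11 auxin receptors and parts of their ubiquitin ligase, 6 had positive and 5 negative differences, and the median was 0.01. AFB4 and TIR1, both F-box receptors, differed by 0.20 (adjusted p = 0.379) and 0.14 (0.539), AFB3 by -0.11 (0.578), and ECR1, a subunit of the enzyme that activates the ubiquitin-like protein RUB, by -0.09 (0.702). AFB4 differed by 0.11 without 35S::GRF5 replicate 1, TIR1 by 0.06 without wild type replicate 3, and ECR1 by -0.15 to -0.04 when single arrays were left out. All 11 intervals lay inside 0.5 log2 units. Of the 5 TOPLESS corepressors 3 were measured: TPL differed by 0.23 (0.422), TPR4 by 0.11 (0.639) and TPR2 by 0.0024 (0.994). When single arrays were left out TPL differed by 0.15 to 0.36 and TPR4 by 0.07 to 0.16.

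Of 12 auxin synthesis genes, 6 had positive and 6 negative differences, with a median of -0.03. TAR2, a tryptophan aminotransferase of the first step, read 6.92, 6.59 and 6.55 in 35S::GRF5 arrays and 6.18, 6.46 and 6.41 in wild-type arrays, a difference of 0.34 (adjusted p = 0.222) without overlap that was 0.22 without 35S::GRF5 replicate 1, its highest array. TAA1, the main enzyme of the same step, differed by -0.15 (0.455). The flavin monooxygenase genes of the second step YUC3 and YUC5 differed by 0.28 (0.243) and -0.27 (0.222), both at low values, with 29.1% and 28.5% of all loci below their means.

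Of 16 transport genes, 8 had positive and 8 negative differences, with a median of -0.01. ABCB4, an auxin transporter of roots, had the most negative difference, but at low values, with 31.9% of all loci below its mean. It read 4.61, 4.28 and 4.29 in 35S::GRF5 arrays and 5.76, 4.48 and 5.55 in wild-type arrays, so that wild type replicate 2 lay among the arrays of the line. The difference was -0.87 (-1.49 to -0.25, adjusted p = 0.177); without that array it was -1.26 and passed, with an adjusted p of 0.0136. The efflux carrier PIN3 differed by 0.35 (0.324) and the influx carriers AUX1 and LAX2 by 0.25 (0.351) and 0.23 (0.246). PIN3 differed by 0.52 without 35S::GRF5 replicate 1, and AUX1 by 0.15 without wild type replicate 2.

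Of 25 auxin response genes 18 were measured, 12 with positive and 6 with negative differences and a median of 0.07. ACS4, an ethylene synthesis gene induced by auxin, read 6.41, 6.23 and 6.27 in 35S::GRF5 arrays and 6.68, 6.71 and 6.68 in wild-type arrays. The groups were well apart, and the difference of -0.39 (-0.58 to -0.19) had an adjusted p of 0.0877, or 0.0449 with array weights. HB-2, a homeodomain gene of the shade response, differed by -0.41 (0.168). ACS8, a relative of ACS4, differed by -0.22 (0.334), or -0.14 without 35S::GRF5 replicate 2. LBD18, a lateral root regulator downstream of ARF7 and ARF19, differed by 0.22 (0.303). LBD18 was low on the array, with 14.0% of all loci below its mean.

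**Figure D4:**
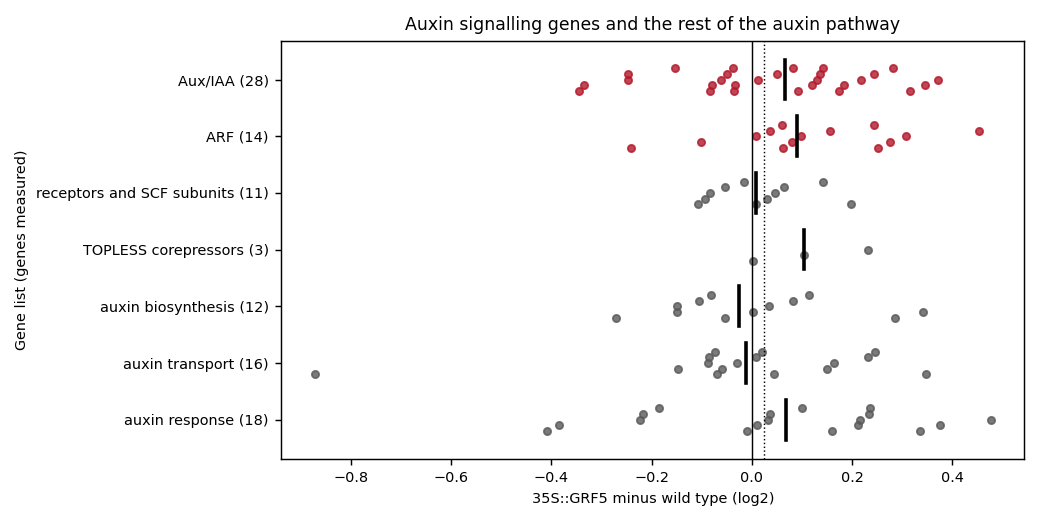
Difference between 35S::GRF5 and wild type (x axis, log2) for each gene of the Aux/IAA and ARF families (red) and of 5 other auxin lists (grey), with the median of each list as a black bar, the number measured in parentheses and the median of all loci, 0.02, dotted. List medians lie between -0.03 and 0.11, and ABCB4, at -0.87, lies apart from the other genes.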

How the data were processed

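The deposited table holds log2 expression values of 6 ATH1 arrays with 1 row per locus code; per the submitters' processing notes the authors used RMA, which corrects background, normalises between arrays and summarises probes; the RMA version, the map from probes to loci and the arrays normalised together are not given in the sources used here. Scanner files, detection calls and scan dates were not used here, and the number of arrays limits the precision. From the deposited values, groups were compared by a moderated linear model (limma version 3.58.1 under R version 4.3.3, two-sided, Benjamini-Hochberg over all 20777 loci, threshold 0.05, no filter). The script was tested on simulated data with independent noise, where calls were required only for differences of 1 log2 unit. How often differences as small as those of the members would be called is not shown by it. Names were checked against a TAIR10.1 gene table, in which all 42 members and all 100 other list entries carried their listed names; no build is named in the files, so coordinates are left out. The rule gives values by array for called members and for the 12 Aux/IAA and 8 ARF genes with the smallest p, and names up to 4 genes per other list; the arrays of IAA7, IAA20 and ARF10 were described after their values were seen. Members and lists were chosen with earlier results of these data known. Exact permutation of 3 against 3 arrays cannot give a p below 0.1 and was not used.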

Additional observations from a re-analysis of the deposited data

How the results depend on the processing

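Under 14 alternatives, 0 of the 42 members passed the threshold. The sign of 30 members held wherever they were tested, and 12 members turned sign at least once. In the main fit the differences of these 12 ran from -0.15 (IAA18) to 0.09 (IAA33). With arrays centred on their medians IAA14 differed by -0.026, ARF3 by -0.0023, ARF10 by -0.030 and the corepressor gene TPR2 by -0.036, and with quantile normalization by -0.029, -0.0015, -0.029 and -0.039. With array weights IAA26 differed by 0.0015, IAA30 by 0.034 and TPR2 by -0.025. When each array was left out in turn, the sign turned in at least 1 of 6 fits for IAA14 (-0.022 to 0.059), IAA16 (-0.055 to 0.16), IAA17 (-0.15 to 0.043), IAA18 (-0.29 to 0.022), IAA26 (-0.23 to 0.13), IAA29 (-0.20 to 0.069), IAA30 (-0.15 to 0.092), IAA33 (-0.037 to 0.24), ARF1 (-0.018 to 0.15), ARF3 (-0.030 to 0.087), ARF10 (-0.14 to 0.19), ARF16 (-0.00077 to 0.12) and TPR2 (-0.065 to 0.061). The cause was not tested.

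Over all loci 160 were called, 59 higher and 101 lower. There were 252 with trend and robust estimation, 294 with array weights, 0 with each gene's own variance (2656 at an unadjusted p under 0.05), and 17 to 186 when single arrays were left out: 17, 96 and 50 without wild type replicates 1, 2 and 3, and 186, 63 and 69 without 35S::GRF5 replicates 1, 2 and 3. With centred arrays 45 were higher and 126 lower. With its own variance GRF5 still differed by 7.03, with an adjusted p of 0.149. Of the 60 other auxin genes 1 was called with array weights (ACS4), and 0 to 1 when single arrays were left out. The filter at the 25th percentile removed IAA30, IAA31 and IAA32, and that at the median also IAA5, IAA6, IAA10, IAA20, IAA28, IAA33, IAA34 and ARF4. With the replicate number as a block, 114 of all loci were called, 36 higher and 78 lower, 0 members passed and ARF11 had an adjusted p of 0.104. Deviations of same-numbered arrays correlated at -0.05, 0.06 and -0.11, so the numbers were not taken to pair the samples.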

Other observations

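Of the auxin response genes, 5 encode measured GH3 enzymes, which conjugate auxin to amino acids; these 5 were named after their values were seen. GH3.3 read 5.30, 6.38 and 5.71 in 35S::GRF5 replicates 1 to 3, against 5.28, 5.25 and 5.43 in wild-type arrays. GH3.17 read 5.92, 6.78 and 6.28 in 35S::GRF5 arrays, against 6.04, 5.70 and 6.11 in wild-type arrays, and GH3.6 read 9.09, 9.97 and 10.10 in 35S::GRF5 arrays, against 9.42, 8.96 and 9.77 in wild-type arrays. In these 3 genes replicate 1 of the line was its lowest array and lay within the wild-type range. GH3.5 read 6.32, 7.09 and 7.03 in 35S::GRF5 arrays, against 6.81, 6.59 and 7.005 in wild-type arrays, with replicate 1 of the line below the wild-type range. GH3.1 did not share this order: it read 4.24, 4.28 and 4.19 in 35S::GRF5 arrays, close together and all above the 3.99, 4.11 and 4.13 of wild-type arrays. It was low on the array, with 20.1% of all loci below its mean. The arrays of the line lay wholly above those of the wild type for 13.2% of all loci. The differences of GH3.3, GH3.17, GH3.6, GH3.1 and GH3.5 were 0.48, 0.38, 0.34, 0.16 and 0.01, with adjusted p of 0.34, 0.403, 0.597, 0.412 and 0.986 in limma.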
